A study of Mus musculus with 8 samples.

Results

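The core cardiac transcription factors are the 10 genes Gata4, Nkx2-5, Tbx5, Tbx20, Mef2a, Mef2c, Mef2d, Hand2, Srf and Myocd, taken by symbol from the 25929 genes listed in the expression table, and all 10 passed the filter on low values. They were measured by RNA-sequencing in 8 heart libraries, 2 in each of 4 groups. The groups joined 2 genotypes with 2 operations. Wild-type C57BL/6 littermates (WT) and mice of the Fat-1 strain, which carry fat-1, a C. elegans gene whose enzyme makes n-3 from n-6 fatty acids, were operated at 3 months of age. Transverse aortic constriction (TAC), a suture around the aorta that loads the left ventricle with pressure, was kept for 8 weeks, and sham mice had the chest opened without a constriction. Group names join genotype and operation (WT-Sham and Fat1-Sham, WT-TAC and Fat1-TAC), and a number after the name gives the replicate, as in WT-TAC1. The labels name ventricular tissue and the methods name whole hearts. The labels number the libraries of a group without saying whether each came from a single heart, so the p-values measure only the spread between these libraries. The mRNA of the transgene itself was not analysed here, and the promoter that drives it is not given in the sources used here.

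These factors bind the control regions of heart genes and work in shared complexes. Gata4 is a zinc finger protein, Nkx2-5 a homeodomain protein, and Tbx5 and Tbx20 are T-box proteins, and together they set up chamber formation in the embryo and hold contractile genes on in the adult. Mef2a, Mef2c and Mef2d encode MADS-box proteins of the MEF2 family, which respond to calcium signals through class II histone deacetylases. Hand2 is a basic helix-loop-helix protein known for its part in right ventricle formation. Serum response factor, the product of Srf, is a MADS-box protein that binds CArG boxes in sarcomere, cytoskeleton and immediate early genes, and myocardin, the product of Myocd, is a muscle-specific coactivator that works through it. Pressure overload is the classic setting in which Gata4, the MEF2 proteins and serum response factor are studied in the adult heart, mostly for changes in the activity of the proteins, which mRNA levels do not show.

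In the GRCm38 mouse genome with the GENCODE M21 annotation, all 10 are protein-coding genes. Gata4 (ENSMUSG00000021944) spans chr14:63198922-63271692 and Nkx2-5 (ENSMUSG00000015579) chr17:26838664-26845009, both on the minus strand. Tbx5 (ENSMUSG00000018263) spans chr5:119832668-119885219 on the plus strand and Tbx20 (ENSMUSG00000031965) chr9:24718138-24774303 on the minus strand. Mef2a (ENSMUSG00000030557) spans chr7:67231163-67372858 on the minus strand, whereas Mef2c (ENSMUSG00000005583, chr13:83504034-83667080) and Mef2d (ENSMUSG00000001419, chr3:88142372-88172086) lie on the plus strand. Hand2 (ENSMUSG00000038193) is the shortest of the 10 at 3651 bases, chr8:57320983-57324633 on the plus strand. Srf (ENSMUSG00000015605, chr17:46548329-46556175) and Myocd (ENSMUSG00000020542, chr11:65176561-65269989) lie on the minus strand. The library kit is not stated to keep the strand, so reads of a gene and of an overlapping gene on the other strand cannot be told apart. Exons of Hand2 overlap those of Hand2os1, its antisense RNA, exons of Mef2a those of Lysmd4, and exons of Mef2d those of 1700113A16Rik.

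The members' own start regions were searched for the motifs that the members bind. RefSeq windows on GRCm38.p6, from 250 bases before to 50 bases after an annotated start site, were at hand for 7 of the 10 genes, with none for Gata4, Tbx5 and Myocd, and Mef2c had several. Both strands were searched for the CArG box, the MEF2 site, the GATA element (NGATAN, with A or T at its first and A or G at its last place), the NKX2-5 element AAGTG, the T-box half-site AGGTGT and the E-box CANNTG, which HAND proteins bind with a partner. A CArG box was found in 1.63% of all 32851 windows, a MEF2 site in 3.19%, a GATA element in 29.8%, the NKX2-5 element in 46.4%, the T-box half-site in 13.7% and an E-box in 72.3%. Among the members, CArG boxes were found only in Srf, GATA elements only in Hand2, and a MEF2 site only in Mef2a. The 250 bases before the start sites of Srf and Hand2 are shown because they hold matches to the factors' own sites, with CArG boxes in capitals in Srf and GATA elements in capitals in Hand2. Srf lies at chr17:46556163-46556412 on the minus strand and Hand2 at chr8:57320733-57320982 on the plus strand.
Srf: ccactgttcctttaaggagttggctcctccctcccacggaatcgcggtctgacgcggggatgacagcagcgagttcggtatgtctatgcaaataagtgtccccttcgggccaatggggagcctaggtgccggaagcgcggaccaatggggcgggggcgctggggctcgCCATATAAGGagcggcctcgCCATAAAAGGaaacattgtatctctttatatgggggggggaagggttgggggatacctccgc
Hand2: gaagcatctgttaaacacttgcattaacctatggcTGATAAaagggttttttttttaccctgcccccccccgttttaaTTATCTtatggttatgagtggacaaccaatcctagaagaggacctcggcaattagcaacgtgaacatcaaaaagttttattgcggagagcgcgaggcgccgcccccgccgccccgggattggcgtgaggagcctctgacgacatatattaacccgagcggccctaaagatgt
Mef2a, MEF2 site: ctaaaaatag
The CArG boxes of Srf begin 82 and 62 bases before its start site. The GATA elements of Hand2 begin 215 and 172 bases before the start site, the second of them on the other strand, and an AAGTG element on the other strand, inside an E-box, begins at 235. The MEF2 site of Mef2a, at chr7:67372851-67372860 on the minus strand, begins 2 bases before the start site and runs across it. A match is a string of letters in the window and does not show that a factor was bound.

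Values are FPKM, fragments scaled to transcript length and library depth, as the authors deposited them. The depth recovered from the values was 14163994 to 21218331 fragments per library. A member was counted from 271 to 4613 fragments in a library, which gives a counting error of 1.47% to 6.07%, and this covers counting error only. Library WT-TAC1 stood apart. The summed level of 8 lymphocyte markers was 1182 FPKM in it and 5.01 to 19.9 in the other libraries, with Rag1 at 252 against at most 0.06. The sum of 15 cardiomyocyte markers was 30409 FPKM in WT-TAC1, against 55419 to 72535 elsewhere. Epithelial markers were high in both WT-TAC libraries (Scgb1a1 at 707 and 1555 FPKM, against at most 33.1). Atrial markers went against the ventricular label in 5 libraries: Myl7, the atrial myosin light chain, stood at 456 to 1945 FPKM in the WT libraries and Fat1-Sham1, and at 9.62 to 18.3 in Fat1-Sham2 and both Fat1-TAC libraries. Over all genes, the median was 2.61 FPKM for WT-TAC1, 1.58 for WT-TAC2, and 0.823 to 1.16 for the others. In bulk tissue, fewer cells of a type and less RNA per cell cannot be told apart.

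In the 4 sham libraries Mef2d, Gata4 and Mef2a had the highest levels of the 10 factors, and Tbx5, Myocd and Hand2 the lowest. Mean FPKM was 76.2 ± 10.7 for Mef2d, 70.5 ± 13.4 for Gata4, 63.1 ± 5.64 for Mef2a, 48.1 ± 6.70 for Nkx2-5, 36.1 ± 2.54 for Tbx20, 32.8 ± 5.72 for Srf, 31.8 ± 5.97 for Mef2c, 17.8 ± 8.93 for Tbx5, 17.0 ± 3.36 for Myocd and 14.4 ± 1.90 for Hand2 (SD, n = 4 libraries of 2 genotypes). FPKM is per length, so this order also rests on the gene lengths behind the deposited values. The length recovered from the values matched an annotated transcript only for Nkx2-5 and Hand2. Among the 14442 genes tested, Mef2d stood at percentile 92.6 and Hand2, the lowest, at 65.2. Neighbours in this order overlapped in their sham libraries except at 2 steps, Mef2a above Nkx2-5 and Nkx2-5 above Tbx20. Tbx5 had the widest range in sham hearts, 2.91-fold from lowest to highest library, and Tbx20 the narrowest, 1.19-fold.

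**Figure D1:**
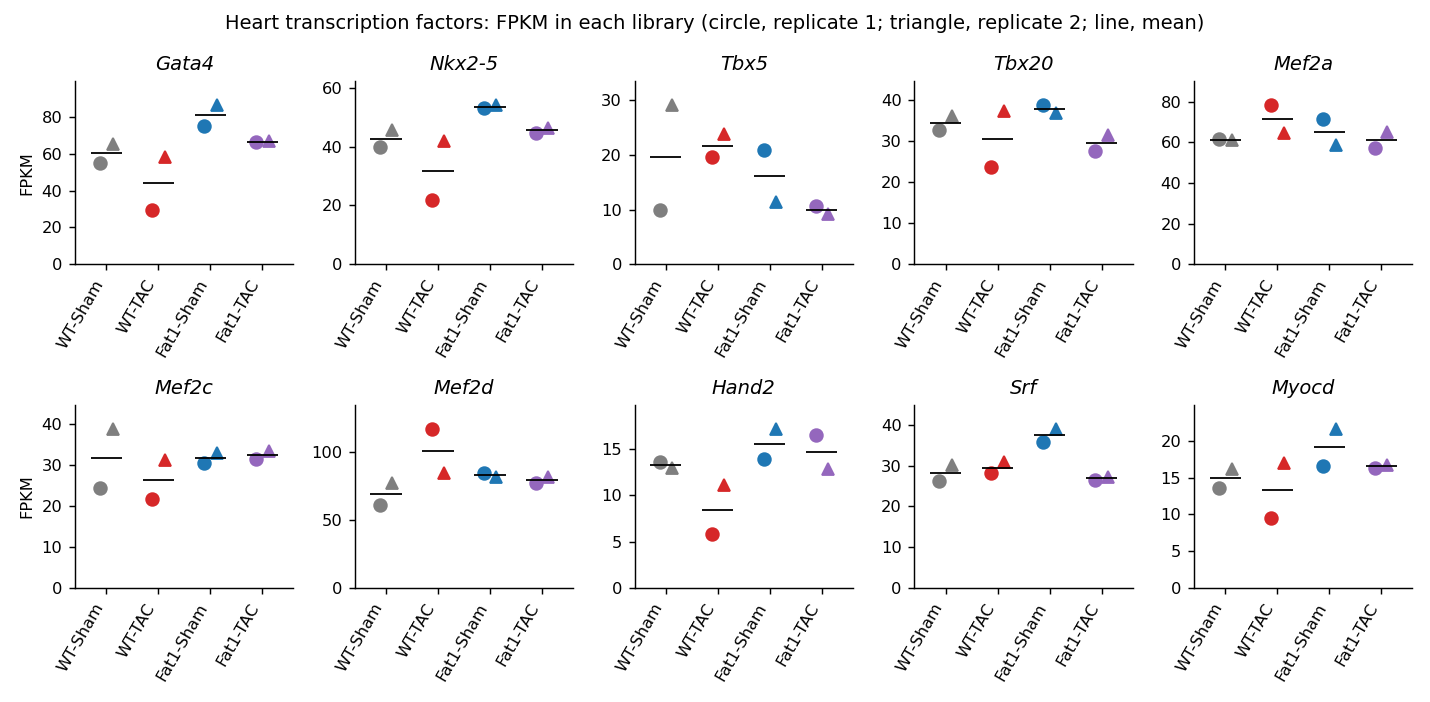
FPKM of each of the 10 factors in the 8 libraries, 1 panel per gene with its own vertical axis from 0, groups on the horizontal axis, points for libraries and lines for group means (n = 2). Gata4, Nkx2-5, Tbx20, Mef2c, Hand2 and Myocd have their lowest point in WT-TAC1, at 29.7, 21.8, 23.7, 21.7, 5.81 and 9.53 FPKM. Mef2a and Mef2d have their highest point there, at 78.3 and 118 FPKM.

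Gata4 and Nkx2-5, which bind each other as proteins, kept nearly the same ratio in every library. Gata4 stood at 55.1 and 65.4 FPKM in WT-Sham, 29.7 and 58.4 in WT-TAC, 75.1 and 86.4 in Fat1-Sham, and 66.2 and 66.6 in Fat1-TAC (replicate 1 first). WT-TAC1 was low, WT-TAC2 lay within the WT-Sham range, and both Fat1-Sham libraries lay above all others. Nkx2-5 stood at 39.8 and 45.6 FPKM in WT-Sham, 21.8 and 41.8 in WT-TAC, 53.0 and 54.1 in Fat1-Sham, and 44.8 and 46.4 in Fat1-TAC, the same order of groups. The Gata4 to Nkx2-5 ratio ran from 1.36 in WT-TAC1 to 1.60 in Fat1-Sham2, a 1.17-fold range, while each gene alone spanned 2.91-fold and 2.48-fold. Such a ratio does not depend on how a library is scaled. Gata6, the other GATA factor of the adult heart, was lower than Gata4 in every library, with a Gata4 to Gata6 ratio of 2.17 in WT-TAC1 and 2.89 to 4.09 elsewhere. The ratio of Gata4 to the cardiomyocyte gene Tnnt2, cardiac troponin T, spanned 1.59-fold. It was 0.00938 and 0.0119 in WT-Sham, 0.00970 and 0.0111 in WT-TAC, 0.0135 and 0.0149 in Fat1-Sham, and 0.0118 and 0.0113 in Fat1-TAC, with both Fat1-Sham libraries above the other 6.

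The T-box genes differed from each other. Tbx5 stood at 9.99 and 29.1 FPKM in WT-Sham, 19.5 and 23.7 in WT-TAC, 20.9 and 11.4 in Fat1-Sham, and 10.6 and 9.20 in Fat1-TAC. WT-Sham2 was the highest of the 8 libraries and WT-Sham1 the second lowest, and both Fat1-TAC libraries lay below both WT-TAC libraries. Counting error was small beside it: the lowest count, 272 fragments in WT-Sham1, gives an exact 95% Poisson interval of 8.83 to 11.2 FPKM. Tbx5, which patterns the atria as well as the left ventricle, was at 9.20 to 11.4 FPKM in the 3 libraries whose 7 atrial markers summed to 358 to 408 FPKM, and at 19.5 to 29.1 FPKM in 4 of the 5 libraries whose atrial sum was 1618 to 5451 FPKM. The exception was WT-Sham1, with an atrial sum of 1618 FPKM and Tbx5 at 9.99. Within the list, Pam alone held 318 to 352 FPKM in the 3 libraries with low sums. Bmp10 went another way in WT-Sham2, the library with the highest sum. It was at 0.073 FPKM there and at 8.63 to 70.5 in WT-Sham1, both WT-TAC libraries and Fat1-Sham1. The part of atrial tissue in the Tbx5 values was not tested. Tbx20 stood at 32.7 and 36.1 FPKM in WT-Sham, 23.7 and 37.3 in WT-TAC, 38.8 and 36.7 in Fat1-Sham, and 27.5 and 31.4 in Fat1-TAC. Its highest and lowest libraries were 1.64-fold apart, and both Fat1-TAC libraries lay below the 4 sham libraries. The Tbx5 to Tbx20 ratio spanned 0.293 to 0.824.

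**Figure D2:**
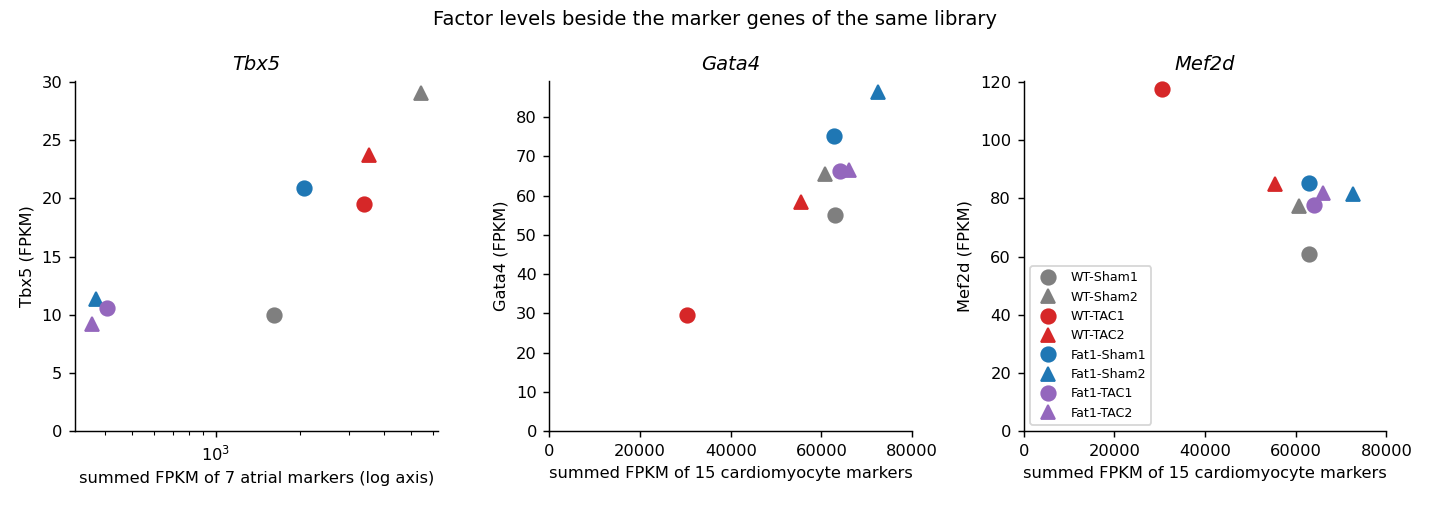
FPKM of Tbx5 against the summed FPKM of 7 atrial markers (log axis), and of Gata4 and Mef2d against the summed FPKM of 15 cardiomyocyte markers, with 1 point per library (circles, replicate 1; triangles, replicate 2). Tbx5 lies at 9.20 to 11.4 FPKM in the 3 libraries with the lowest atrial sums, and WT-TAC1, with the lowest cardiomyocyte sum, holds the lowest Gata4 and the highest Mef2d.

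Mef2a and Mef2d made up most of the summed FPKM of the MEF2 genes. Mef2d stood at 61.0 and 77.2 FPKM in WT-Sham, 118 and 85.1 in WT-TAC, 85.1 and 81.5 in Fat1-Sham, and 77.6 and 82.0 in Fat1-TAC. Mef2a stood at 61.5 and 61.1 FPKM in WT-Sham, 78.3 and 64.4 in WT-TAC, 71.3 and 58.5 in Fat1-Sham, and 56.95 and 65.1 in Fat1-TAC. For both genes the WT-TAC libraries lay above both WT-Sham libraries and WT-TAC1 was the highest of all 8. Mef2c, the family member most tied to heart muscle and vessel development, stood at 24.6 and 39.0 FPKM in WT-Sham, 21.7 and 31.4 in WT-TAC, 30.5 and 33.1 in Fat1-Sham, and 31.5 and 33.5 in Fat1-TAC, with the WT-Sham libraries 1.59-fold apart. As a share of the summed FPKM of these 3 genes, Mef2d held 41.5% to 47.1% in 7 libraries and 54.0% in WT-TAC1, Mef2a 33.8% to 41.8% in all 8, and Mef2c 16.3% to 22.0% in 7 libraries and 9.97% in WT-TAC1. The Mef2d to Mef2c ratio was 5.42 in WT-TAC1 and 1.98 to 2.79 elsewhere. Mef2b, the fourth family member, was at most 0.12 FPKM and was not tested. Of the genes whose exons overlap them, Lysmd4 was listed at 8.32 to 12.5 FPKM and 1700113A16Rik at 0.21 to 2.34 FPKM, all below the MEF2 gene that each overlaps.

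**Figure D3:**
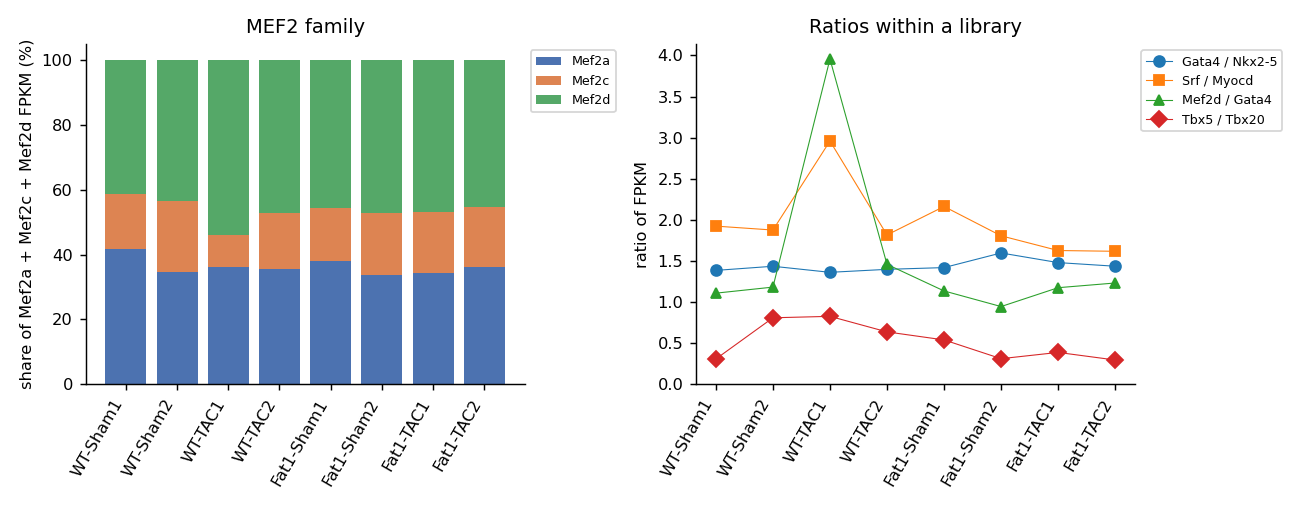
Left, the share of the summed MEF2 FPKM held by Mef2a, Mef2c and Mef2d in each library as stacked bars in percent; right, ratios of FPKM within a library on an axis from 0. WT-TAC1 has the lowest Mef2c share, 9.97%, and a Mef2d to Gata4 ratio of 3.96 against 0.944 to 1.46 in the other libraries, while the Gata4 to Nkx2-5 ratio stays between 1.36 and 1.60.

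Hand2 was lowest in both WT-TAC libraries. It stood at 13.5 and 12.9 FPKM in WT-Sham, 5.81 and 11.1 in WT-TAC, 13.9 and 17.2 in Fat1-Sham, and 16.5 and 12.9 in Fat1-TAC. WT-TAC2 lay just under the lowest of the other groups and WT-TAC1 far under it. Its ratio to Gata4 was 0.186 to 0.249 in all 8 libraries. Hand2os1, the antisense RNA whose exons overlap those of Hand2, was listed at 33.8 to 57.3 FPKM, above Hand2 in every library. The Hand2 to Hand2os1 ratio was 0.271 and 0.226 in WT-Sham, 0.172 and 0.205 in WT-TAC, 0.321 and 0.320 in Fat1-Sham, and 0.321 and 0.235 in Fat1-TAC. Both WT-TAC ratios lay below all others, though reads in the shared exons may have been given to either gene.

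Srf was highest in the Fat1-Sham hearts. It stood at 26.2 and 30.3 FPKM in WT-Sham, 28.2 and 30.8 in WT-TAC, 35.8 and 39.1 in Fat1-Sham, and 26.6 and 27.1 in Fat1-TAC. Both Fat1-Sham libraries lay above the other 6, and unlike Gata4 or Mef2d, Srf had similar values in the 2 WT-TAC libraries. Myocd stood at 13.6 and 16.1 FPKM in WT-Sham, 9.53 and 17.0 in WT-TAC, 16.5 and 21.7 in Fat1-Sham, and 16.4 and 16.8 in Fat1-TAC, so that only WT-TAC1 lay well below the rest. The Srf to Myocd ratio was 2.96 in WT-TAC1 and 1.62 to 2.16 elsewhere. Myocd is also expressed in smooth muscle, and 8 smooth muscle markers summed to 334 to 594 FPKM, of which Rgs5 held 125 to 257. The sum was 398 and 594 FPKM in WT-TAC and 334 to 531 elsewhere. Single markers differed. Cnn1, calponin of smooth muscle, was at 30.3 and 45.7 FPKM in WT-TAC, 25.02 in WT-Sham2 and 1.82 to 12.3 elsewhere. Myh11, the smooth muscle myosin heavy chain, was at 30.3 and 41.9 in WT-TAC, 29.9 in WT-Sham2 and 9.07 to 18.1 elsewhere. Rgs5, however, was lowest in WT-TAC1 and highest in Fat1-TAC1. Smtn was at 58.7 and 101 FPKM in WT-TAC and 81.0 and 102 in Fat1-TAC. Of the 7 markers tested, 5 had a lower and 2 a higher mean in Fat1-TAC against WT-TAC. The part of smooth muscle in the Myocd values was not tested.

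In wild-type hearts, the comparison of WT-TAC with WT-Sham asks what pressure overload did to these mRNAs. Mef2d was 1.45-fold higher (log2 fold change 0.54 on the log2(FPKM + 1) scale, SE 0.20), Hand2 stood at 0.637-fold (-0.65, SE 0.29), Gata4 at 0.699-fold (-0.52, SE 0.29) and Nkx2-5 at 0.717-fold (-0.48, SE 0.28). None of the 10 was called by limma at an adjusted p under 0.1 and a fold change of 1.5, where 0.935% of all genes were. Mef2d alone had an unadjusted p under 0.05 (limma's adjusted p = 0.176), as 27.5% of all genes did. The groups did not overlap for Mef2a and Mef2d, which were higher, as were 52.5% of all genes, and for Hand2, which was lower, as were 7.09%. The median log2 fold change was -0.20 over the 10 factors and 0.39 over all genes tested. Relative to that shift, the Mef2d difference was 0.15 and the Hand2 difference -1.04 on the log2 scale. The difference depended on the scaling. Scaled to cardiomyocyte genes, Gata4 was at -0.069, Nkx2-5 at -0.038 and Hand2 at -0.24, and Mef2d was at 0.99. Scaled by the median of ratios, the same genes were at -0.93, -0.89, -1.02 and 0.11. None of the 4 changed sign under the 4 other scalings, while Mef2a turned to -0.22 when libraries were scaled by the median of ratios.

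These values turned on WT-TAC1. Without it, the log2 fold change was -0.040 for Gata4, -0.027 for Nkx2-5, -0.24 for Hand2 and 0.31 for Mef2d, with limma's adjusted p from 0.337 for Mef2d to 0.902 for Nkx2-5, and 0 of 10 were called. Without WT-TAC2 instead, so that WT-TAC1 stood for the group and was assumed to vary like the others, 5 were called: Gata4 (-0.99), Nkx2-5 (-0.93), Hand2 (-1.06), Myocd (-0.59) and Mef2d (0.77). That fit called 51.3% of all genes, 45% higher and 6.31% lower. Gata4, Nkx2-5, Hand2 and Myocd were lower and Mef2d higher there, while the median log2 fold change over all genes was 0.54 in that fit. Scaled to cardiomyocyte genes, the WT-TAC libraries held Gata4 at 53.3 and 58.2 FPKM and Nkx2-5 at 39.2 and 41.7, whereas Mef2a stood at 141 and 64.2 and Mef2d at 211 and 84.8. On that scale the WT-TAC libraries were close for Gata4, Nkx2-5, Hand2 and Myocd and apart for Mef2a, Mef2d and Srf. Other markers moved with the WT-TAC libraries. In WT-TAC against the other 6 libraries, 6 adipocyte markers summed to 542 and 771 FPKM against 226 to 388, and 6 macrophage markers to 531 and 413 against 242 to 342. Mitochondrially encoded genes held 13.5% and 21.3% of summed FPKM in WT-TAC and 24.8% to 29.8% elsewhere. Of 8 skeletal muscle markers, the fast muscle gene Tnnt3 was at 48.4 FPKM in WT-TAC1, 4.73 in WT-TAC2 and 0.40 to 0.71 elsewhere. Tnni2, another of them, was at 33.4 FPKM in WT-TAC1, but its 3.92 in WT-TAC2 lay within the 1.18 to 5.63 found elsewhere. The sum of the 8 did not stand apart, at 247 and 205 FPKM in WT-TAC and 118 to 432 elsewhere. The part of these and of the lymphocyte and epithelial genes in the values of the factors was not tested.

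**Figure D4:**
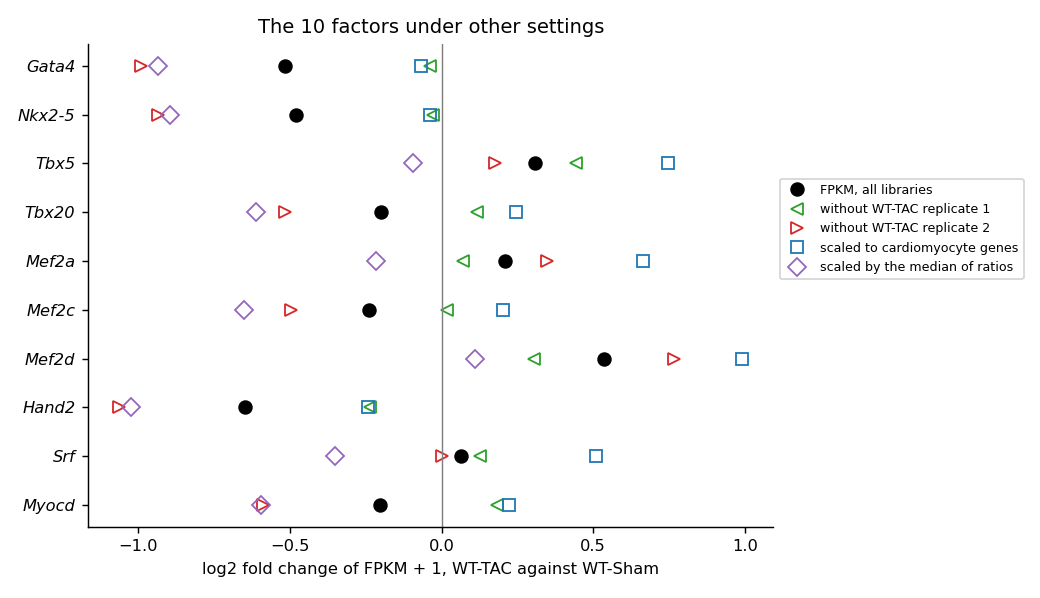
Log2 fold change of FPKM + 1 between WT-TAC and WT-Sham for the 10 factors with all libraries, without either WT-TAC library, and under 2 other scalings. Gata4 moves from -0.52 with all libraries to -0.040 without WT-TAC1 and -0.99 without WT-TAC2, and Mef2d stays above 0 under each of these settings.

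In fat-1 hearts, Fat1-TAC against Fat1-Sham asks the same question in the other genotype. Srf stood at 0.726-fold in Fat1-TAC (log2 fold change -0.46, 95% interval -0.81 to -0.11) and Tbx20 at 0.784-fold (-0.35, -0.87 to 0.17). None of the 10 was called by limma (0.00692% of all genes were), and Srf alone had an unadjusted p under 0.05 (limma's adjusted p = 1), as 2.58% of all genes did. The groups did not overlap for 5 factors, Gata4, Nkx2-5, Tbx5, Tbx20 and Srf, all lower in Fat1-TAC, beside 21.5% of all genes that were lower and 26.8% that were higher. Their folds were 0.662 to 0.854. These 5 kept their direction under each of the 4 other scalings. Mef2c, the only factor with a higher mean, was at 1.02-fold. The median log2 fold change was -0.20 over the factors and 0.025 over all genes.

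Between sham hearts, Fat1-Sham against WT-Sham asks what the transgene did without pressure overload. Gata4 was 1.34-fold, Srf 1.32-fold, Myocd 1.26-fold and Nkx2-5 1.25-fold higher in mean on this scale. None was called (0% of all genes were), and Srf alone had an unadjusted p under 0.05 (log2 fold change 0.40, SE 0.15, limma's adjusted p = 1), as 1.25% of all genes did. The groups did not overlap for 7 factors, all higher in Fat1-Sham: Gata4, Nkx2-5, Tbx20, Mef2d, Hand2, Srf and Myocd. Each of the 7 kept its direction under the 4 other scalings, with Tbx20 closest to 0 at 0.034 when scaled to cardiomyocyte genes. Of all genes, 15.5% were higher and 16.5% lower without overlap. The median log2 fold change was 0.24 over the factors and -0.015 over all genes. Of 8 fibroblast markers, 8 had a lower mean in Fat1-Sham, 5 of them without overlap. Their sum was 698 and 1108.5 FPKM in WT-Sham and 677 and 616 in Fat1-Sham. The part of fibroblasts in the values of the factors was not tested. Only 2 libraries stood on each side and the exact permutation test of 2 against 2 cannot go below a two-sided p of 0.33.

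After constriction, Fat1-TAC against WT-TAC asks what the transgene did under pressure overload. Hand2 was 1.72-fold higher (log2 fold change 0.78, SE 0.29), Gata4 1.58-fold (0.66, SE 0.29) and Nkx2-5 1.49-fold (0.58, SE 0.28), and Tbx5 stood at 0.483-fold (-1.05, SE 0.47). None was called by limma, where 1.43% of all genes were, and Hand2 alone had an unadjusted p under 0.05 (limma's adjusted p = 0.164), as 29.4% of all genes did. The groups did not overlap for Gata4, Nkx2-5, Mef2c and Hand2, which were higher (9.33% of all genes), nor for Tbx5, Mef2d and Srf, which were lower (57.1%). Without WT-TAC1 the log2 fold change was 0.18 for Gata4, 0.12 for Nkx2-5, 0.37 for Hand2 and -1.18 for Tbx5, and 0 of 10 were called, while without WT-TAC2 4 were called, Gata4, Nkx2-5, Hand2 and Myocd, all higher. That fit called 54.3% of all genes, 7.44% higher and 46.8% lower. Scaled to cardiomyocyte genes, Gata4 was at 0.0088, Nkx2-5 at -0.069 and Mef2c at -0.34, and scaled by the median of ratios, Mef2d was at 0.10 and Srf at 0.28. Of these 5, only Gata4 kept its sign. Hand2 was at 0.18 when scaled to cardiomyocyte genes (limma's adjusted p = 0.614) and was at 1.151 by the median of ratios. Tbx5 was at -1.67 and -0.65 on these scales. This comparison shares the WT-TAC libraries with that of WT-TAC and WT-Sham, so the opposite signs of Gata4, Nkx2-5 and Hand2 there are not separate observations. Tbx5 differed most on this scale, and the 7 atrial markers summed to 3393 and 3534 FPKM in WT-TAC and to 408 and 358 in Fat1-TAC. The 8 fibroblast markers summed to 1128 and 1125 FPKM in WT-TAC and to 630 and 645 in Fat1-TAC, and all 8 had a lower mean there. The part of fibroblasts in this comparison was not tested either.

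**Figure D5:**
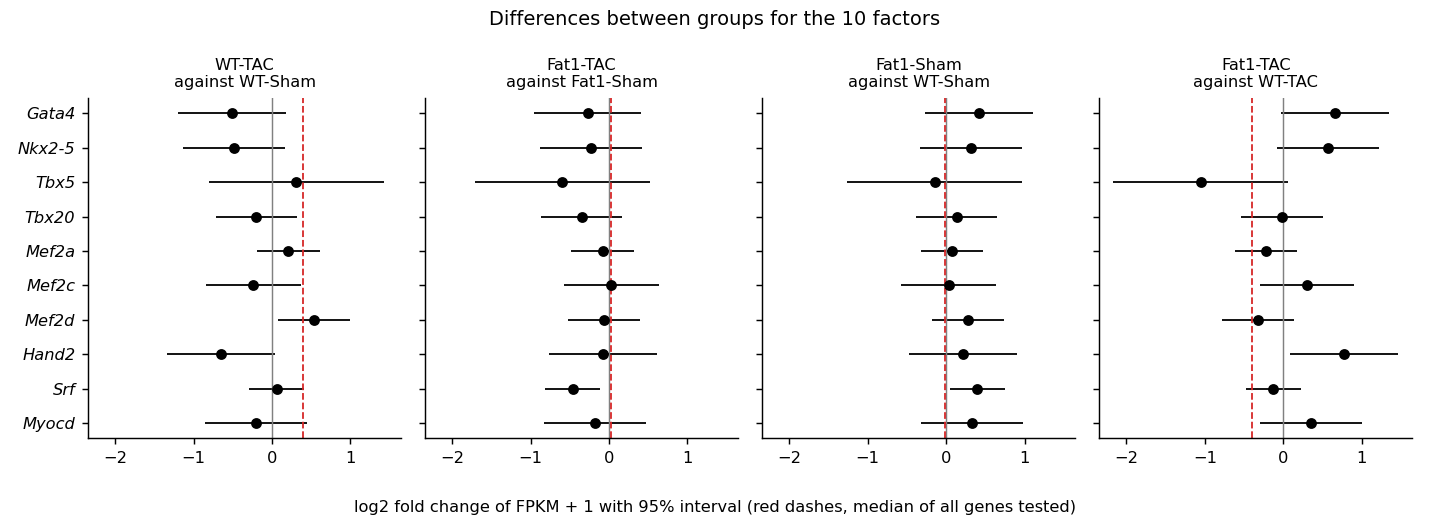
Log2 fold change of FPKM + 1 with its 95% interval from limma for the 10 factors in the 4 comparisons between groups, with the median of all genes tested as red dashes. The intervals that leave out 0 are those of Mef2d in WT-TAC against WT-Sham, of Srf in both comparisons with Fat1-Sham, and of Hand2 in Fat1-TAC against WT-TAC.

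The interaction of genotype and surgery asks whether the response to constriction differed between genotypes. It was -0.60 on the log2 scale for Mef2d (SE 0.28) and -0.53 for Srf (SE 0.21), the response being lower in fat-1 hearts. None of the 10 was called, beside 0.0692% of all genes, and Srf alone had an unadjusted p under 0.05 (limma's adjusted p = 0.495), as 7.26% of all genes did. Without WT-TAC2, 4 were called, Gata4, Nkx2-5 and Hand2 above 0 and Mef2d below, in a fit that called 46.2% of all genes, 6.12% above 0 and 40.1% below. In the per-gene test with equal variances, 0 of 10 were called in each of the 5 comparisons as well.

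The partners and targets of the factors gave no calls either. Of 20 cofactors, 29 tested other heart transcription factors and 34 tested target genes, 0 were called by limma in each direction in the 5 comparisons. At an unadjusted p under 0.05 in WT-TAC against WT-Sham, 6 cofactors were higher and 1 lower, 5 other factors higher and 0 lower, and 1 target gene higher and 0 lower, beside 25.7% of all genes higher and 1.81% lower. In Fat1-TAC against WT-TAC the counts were 2 and 4 cofactors, 3 and 4 other factors, and 8 and 6 target genes, beside 2.44% of all genes higher and 27% lower. The 8 target genes with higher values were the muscle genes Tnni3, Tnnc1, Myl2, Myl3, Csrp3, Ckm, Mb and Pln, with log2 fold changes of 0.74 to 1.02, and the 15 cardiomyocyte markers summed to 30409 and 55419 FPKM in WT-TAC and to 64056 and 66082 in Fat1-TAC. The 6 with lower values were Nppa, Myl7 and Gja5, which are expressed in atrial muscle, and the smooth muscle genes Acta2, Cnn1 and Myh11. The cofactors with the smallest p were Cabin1, a MEF2 and calcineurin inhibitor, at 22.7 and 26.7 FPKM in WT-Sham and 60.1 and 36.4 in WT-TAC, and Ep300, a histone acetyltransferase that acts on GATA4 and MEF2 proteins, at 21.6 and 27.1 against 60.2 and 35.6 (adjusted p = 0.175 for both). Both were highest in WT-TAC1, and in Fat1-TAC they stood at 26.3 and 28.2 and at 22.7 and 26.8 FPKM. Median log2 fold changes in WT-TAC against WT-Sham were 0.23 for the cofactors, 0.12 for the other factors and -0.49 for the targets, beside 0.39 for all genes. In Fat1-TAC against WT-TAC the same medians were -0.19, -0.12 and 0.49, beside -0.40.

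Among the other heart factors, Isl1 and Irx3 had the smallest p values. Isl1, a factor of the second heart field and of several other tissues, was at 6.89 and 1.42 FPKM in WT-TAC and at most 0.41 in the other libraries (log2 fold change 1.84 in WT-TAC against WT-Sham, limma's adjusted p = 0.175). Nfatc2, a calcineurin-driven factor, was at 2.95 and 3.95 FPKM in WT-Sham and 6.57 and 5.74 in WT-TAC, with similar values, 5.06 and 5.68, in Fat1-TAC. Irx3, which is expressed in ventricular conduction cells, was at 15.04 and 19.5 FPKM in Fat1-TAC and 4.89 to 10.1 in the other libraries (1.21 in Fat1-TAC against WT-TAC, adjusted p = 0.143). It thus stood apart in Fat1-TAC with no overlap, in libraries low in atrial markers. Fat1-Sham2, equally low in atrial markers, held Irx3 at 8.74 FPKM.

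Among the target genes, Myh7 and the atrial genes had the smallest p values. Myh7, the slow myosin heavy chain that pressure overload is known to raise, was at 28.9 and 47.3 FPKM in WT-Sham, 50.7 and 89.0 in WT-TAC, 31.1 and 30.5 in Fat1-Sham, and 76.0 and 120 in Fat1-TAC. Both TAC groups lay above their sham groups, and in WT-TAC against WT-Sham the log2 fold change was 0.85 (adjusted p = 0.181). Ckm, muscle creatine kinase, was at 237 FPKM in WT-TAC1 and 450 to 588 in the other libraries. Nppa, the atrial natriuretic peptide gene and a textbook target of Gata4, Nkx2-5 and Tbx5, stood at 299 and 241 FPKM in WT-TAC and 13.6 and 11.1 in Fat1-TAC (log2 fold change -4.34, adjusted p = 0.134), and Myl7 at 1035 and 1097 against 18.3 and 12.7 (-6.03, adjusted p = 0.150). Fat1-Sham2 had both at a similarly low level without constriction, 9.04 FPKM for Nppa and 9.62 for Myl7, and Fat1-Sham1 had them at 128 and 602. Nppb, which is induced in ventricular muscle under load and was chosen here after its values were seen, was at 175 to 418 FPKM in all 8 libraries, with the highest value in Fat1-Sham2.

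Each factor was set beside the genes whose pattern over the 8 libraries was most like its own, measured as the root mean square difference of centred log2(FPKM + 1) values, among genes with a mean of 5 FPKM or more. The gene closest to Gata4 was Nkx2-5 (0.068 on the log2 scale), followed by Adra1b, an alpha-adrenergic receptor gene (0.071). Nkx2-5 was closest to Jph2, which encodes junctophilin of the cardiac dyad (0.050), and then to Klhl31 (0.067). The Nkx2-5 to Jph2 ratio was 0.302 to 0.338 in all 8 libraries. Hand2 was closest to Cd36, a fatty acid transporter gene (0.069), and then to Rasl10b (0.083). Tbx5 was closest to Kcnj3, a potassium channel gene of atrial muscle (0.151), the widest gap of any closest gene. Peg3 came next to Tbx5 at nearly the same distance (0.157). Mef2c was closest to Atp1b1 (0.070) and then to Adrb1, the beta-1 adrenergic receptor gene (0.076), and Tbx20 to Kif13a (0.056) and Pfkl (0.057). Mef2a was closest to Pdcd2l (0.048) and Mettl16 (0.058), Mef2d to Zfp629 (0.040) and Ptpa (0.058), and Srf to Map3k4 (0.062) and the pseudogene Sms-ps (0.071), whose reads may be shared with its parent gene.

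Between the factors themselves the closest pair was Gata4 and Nkx2-5 at 0.068, then Nkx2-5 and Myocd at 0.145 and Gata4 and Hand2 at 0.149. Mef2a and Mef2d were 0.166 apart, and each was farther from Gata4, at 0.528 and 0.594. The widest distance was that of Tbx5 and Hand2, 0.830. All 8 points of such a pattern share their library's depth and cell makeup, so the distances describe these libraries.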

How the data were processed

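Total RNA was extracted with TRIzol, libraries were made with a NEBNext Ultra RNA kit and sequenced on an Illumina HiSeq. After quality control the authors mapped the reads to a reference transcriptome, and they deposited FPKM values for 25929 genes in 8 libraries. The submitters' processing notes name HISAT2 and the builds mm10 and GRCm38; the counting program and annotation are not given in the sources used here. Depth was recovered as the value obtained most often across genes when an FPKM is read as a small whole number of fragments. The median annotated transcript length of each gene was used for this. The fragments of a gene were then taken at a length where its values in all 8 libraries are whole, within 0.02 fragments. With limma (version 3.58.1, R 4.3.3), the 14442 genes that reached 1 FPKM in 2 or more libraries were fitted as log2(FPKM + 1) with 4 group means over all 8 libraries (lmFit, eBayes with a trend). The cutoffs of the study were used for calls, namely a p below 0.1 after Benjamini-Hochberg adjustment together with a fold of more than 1.5 in either direction. Standard errors (SE) are limma's moderated ones. The analysis had been written for counts or FPKM, and the FPKM form was used. The fit was also run on simulated data in which all libraries varied alike. That run does not cover the WT-TAC group, where 2560 genes were more than 2-fold apart, against 275 to 362 in the other groups.

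The members and the lists of cofactors, other heart factors, targets and markers were chosen with earlier results of these data known. Besides the members, the text names the list genes with the 2 smallest unadjusted p in the comparisons of WT-TAC with WT-Sham or Fat1-TAC. It names marker genes and, for each member but Myocd, the 2 genes most like it. It also names the target genes with an unadjusted p under 0.05 in Fat1-TAC against WT-TAC. Further named genes are Gata6 and Mef2b as family members, the genes whose exons overlap a member, and Nppb. Scaling to cardiomyocyte genes divides a library by its median ratio over the cardiomyocyte markers. Motifs and sequences are from RefSeq windows. Alternatives were other scalings, pseudocounts, filters and tests, the replicate number as a block, and each library left out in turn. The replicate numbers came from the labels, and deviations of same-numbered libraries from their group means correlated between -0.135 and 0.0236 across genes, so they were not taken as pairs. The gene whose pattern was most like that of Myocd is not reported here.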

Additional observations from a re-analysis of the deposited data

Results flagged for a closer look

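For Mef2d and Srf, both fat-1 libraries lay above both wild-type libraries after sham surgery and below them after constriction. The interaction of genotype and surgery was -0.60 for Mef2d and -0.53 for Srf on the log2 scale, and neither passed the threshold in limma (adjusted p = 0.495 for both). After constriction, the Mef2d difference rests on WT-TAC libraries at 118 and 85.1 FPKM against 77.6 and 82.0 in Fat1-TAC, and the Srf difference on 28.2 and 30.8 against 26.6 and 27.1. Without WT-TAC1 the interactions were -0.37 for Mef2d and -0.59 for Srf.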

How the results depend on the processing

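Under the alternatives tried, 0 of the 10 factors were called in each of the 5 comparisons, with the single exception of leaving out WT-TAC replicate 2. That fit leaves WT-TAC1 as the only WT-TAC library, and no conclusion is drawn from its calls. Its log2 fold changes in WT-TAC against WT-Sham were -0.99 for Gata4, -0.93 for Nkx2-5, -1.06 for Hand2, -0.59 for Myocd and 0.77 for Mef2d. In Fat1-TAC against WT-TAC they were 1.135 for Gata4, 1.03 for Nkx2-5, 1.19 for Hand2 and 0.74 for Myocd. With the replicate block, 0 factors were called in each comparison, and the genes called in WT-TAC against WT-Sham went from 133 higher and 2 lower to 52 higher and 0 lower, in Fat1-TAC against WT-TAC from 5 higher and 201 lower to 1 and 51. Over all genes, the number called higher in WT-TAC against WT-Sham (133) ran from 9 with a mean of 5 FPKM or more to 286 with no filter, the number called lower in Fat1-TAC against WT-TAC (201) from 13 with quantile normalization to 342 with no filter, and the number called lower in the interaction (9) from 0 to 63. With a library left out, the first 2 of these ran from 0 to 6497 and from 4 to 6763, the highest without WT-TAC replicate 2. The median log2 fold change over all genes in WT-TAC against WT-Sham was 0.39, and it was 0.026 when scaled by the median of ratios, -0.073 with quantile normalization and 0.80 when scaled to cardiomyocyte genes. The factors' median after scaling by the median of ratios was -0.60 in WT-TAC against WT-Sham, 0.55 in Fat1-TAC against WT-TAC and 0.31 in the interaction. The factors' median after scaling to cardiomyocyte genes was 0.23 in WT-TAC against WT-Sham, -0.50 in Fat1-TAC against WT-TAC and -0.60 in the interaction. The factors' median after quantile normalization was -0.65 in WT-TAC against WT-Sham, 0.60 in Fat1-TAC against WT-TAC and 0.42 in the interaction. With each library left out, the median of the interaction ran from -0.30 to 0.29. Some factors, none of them called, changed sign. Scaled by the median of ratios, in WT-TAC against WT-Sham Tbx5 was -0.096, Mef2a was -0.22 and Srf was -0.35, in Fat1-TAC against WT-TAC Tbx20 was 0.39, Mef2a was 0.20, Mef2d was 0.10 and Srf was 0.28, in the interaction Tbx20 was 0.24 and Mef2a was 0.11. Scaled to cardiomyocyte genes, in WT-TAC against WT-Sham Tbx20 was 0.24, Mef2c was 0.20 and Myocd was 0.22, in Fat1-TAC against Fat1-Sham Mef2c was -0.071, in Fat1-Sham against WT-Sham Mef2a was -0.026 and Mef2c was -0.064, in Fat1-TAC against WT-TAC Nkx2-5 was -0.069, Mef2c was -0.34 and Myocd was -0.27, in the interaction Gata4 was -0.31, Nkx2-5 was -0.29, Mef2c was -0.27 and Myocd was -0.50. With quantile normalization, in WT-TAC against WT-Sham Tbx5 was -0.17, Mef2a was -0.055 and Srf was -0.35, in Fat1-TAC against WT-TAC Tbx20 was 0.43, Mef2a was 0.070 and Srf was 0.31, in the interaction Tbx20 was 0.30 and Mef2a was 0.00024. Scaled without mitochondrially encoded genes, in WT-TAC against WT-Sham Srf was -0.027, in Fat1-TAC against WT-TAC Tbx20 was 0.086. Leaving out each library in turn, the following also crossed 0. In WT-TAC against WT-Sham, Tbx5 ran from -0.42 to 1.04, Tbx20 ran from -0.52 to 0.12, Mef2c ran from -0.56 to 0.084, Srf ran from -0.037 to 0.16 and Myocd ran from -0.59 to 0.18. In Fat1-TAC against Fat1-Sham, Mef2a ran from -0.22 to 0.058, Mef2c ran from -0.026 to 0.087, Hand2 ran from -0.25 to 0.087 and Myocd ran from -0.37 to 0.0017. In Fat1-Sham against WT-Sham, Tbx5 ran from -0.87 to 0.58, Mef2a ran from -0.067 to 0.22 and Mef2c ran from -0.29 to 0.36. In Fat1-TAC against WT-TAC, Tbx20 ran from -0.34 to 0.30 and Myocd ran from -0.034 to 0.74. In the interaction, Gata4 ran from -0.24 to 0.72, Nkx2-5 ran from -0.20 to 0.71, Tbx20 ran from -0.47 to 0.17, Mef2c ran from -0.054 to 0.59 and Myocd ran from -0.37 to 0.41. The cause of these changes was not tested. A pseudocount of 0.1, the filters, the replicate block, the per-gene test and fits of only the groups compared left the sign of each factor as it was.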
